A study of Mus musculus with 8 samples.

Results

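DNA methylation is written by the DNMT enzymes and taken away by TET oxidation followed by base excision. The 9 genes examined here, *Dnmt1*, *Dnmt3a*, *Dnmt3b*, *Dnmt3l*, *Uhrf1*, *Tet1*, *Tet2*, *Tet3* and *Tdg*, encode the principal enzymes and cofactors of that cycle. Every non-control array probe whose RefSeq transcript belongs to 1 of them was taken, which gave 18 probes of 9 genes, among 20660 genes with a matched probe on the array. Each of the 18 was detected well above background in all 8 embryos, and each was tested.

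RNA of 8 single whole embryos collected at E8.5 (embryonic day 8.5) was measured, each on 1 single-colour expression array. The fathers carried the hypomorphic *Eed* allele Eedl7Rn5-1989SB, a point mutation that lowers the function of EED, a core protein of the histone methyltransferase complex PRC2. They were homozygous (*Eed* hypo/hypo, HOM father) or heterozygous (*Eed* hypo/wt, HET father), the mothers were wild type, and all mice were of a mixed C57bl6/129 background. All 8 embryos were themselves heterozygous for the allele, so that the groups differed by design only in the father's genotype, with 4 embryos (2 females and 2 males) in each. Each group came from fewer sires than embryos, so that the spread between embryos, on which every p-value here rests, is in part a spread between embryos that share a father. Each group was also hybridised on a slide of its own, and slide and father therefore cannot be told apart in any comparison by father.

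Between 51.9% and 60.8% of spots were well above background per array, and the number of arrays limits the precision of each value. Markers of the labelled tissue were present, as 12 of 12 genes of the embryo proper, 8 of 8 of the visceral endoderm and yolk sac and 6 of 6 of primitive erythroid cells were well above background on all 8 arrays. Of 9 trophoblast and decidua genes on the array, *Prl3c1* and *Tpbpa* were above background on none, and the other 7 were detected on all arrays. *Eed* itself, the gene carrying the mutation, had a normalised signal of 4.72 ± 0.06 (SD, n = 4) in embryos of HOM fathers and 4.71 ± 0.05 (SD, n = 4) in embryos of HET fathers, with an adjusted p of 0.870.

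As background, DNMT3A and DNMT3B place methyl groups on unmethylated CpG sites, and DNMT3L, which has no catalytic activity, assists them and is known mainly from germ cells and the early embryo. DNMT1 copies methylation onto the daughter strand after replication, and UHRF1 recruits it to hemimethylated sites. TET1, TET2 and TET3 oxidise 5-methylcytosine, and TDG is a glycosylase that excises some of the oxidised bases. After implantation the mouse genome is remethylated and somatic patterns are then kept through cell division.

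The DNA in front of these genes differs in its density of the substrate, the CpG dinucleotide. RefSeq sequence of build GRCm38.p6 held 16 windows of 250 bases upstream of an annotated start for the 9 genes. The number of CpG sites ran from 2 in the most upstream *Dnmt1* window to 51 in the *Tet2* window, beside a median of 6 (quartiles 2 and 16) over the 32851 such windows of all genes. *Dnmt3l* had 3 windows with 5, 4 and 3 sites, and was the 1 member with no window above the median of all genes. *Dnmt1* and *Uhrf1* each had a CpG-dense window further downstream, with 26 and 30 sites. The sequence upstream of the first annotated start is shown for the 4 genes on which the results below turn most, 5′ to 3′, with each CpG in capitals. The *Tdg* stretch ends where the annotated gene begins, so that 226 of the 250 bases of its window are shown, with 16 of its 19 CpG sites. The embryos' own transcription starts and the methylation of these windows were not measured.
Dnmt3l (chr10:78042037-78042286, plus strand): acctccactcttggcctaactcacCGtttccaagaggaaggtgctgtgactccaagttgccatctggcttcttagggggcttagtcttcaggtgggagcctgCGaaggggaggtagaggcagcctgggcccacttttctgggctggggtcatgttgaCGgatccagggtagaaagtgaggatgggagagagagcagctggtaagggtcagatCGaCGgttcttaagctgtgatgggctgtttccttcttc
Dnmt1 (chr9:20959889-20960138, minus strand): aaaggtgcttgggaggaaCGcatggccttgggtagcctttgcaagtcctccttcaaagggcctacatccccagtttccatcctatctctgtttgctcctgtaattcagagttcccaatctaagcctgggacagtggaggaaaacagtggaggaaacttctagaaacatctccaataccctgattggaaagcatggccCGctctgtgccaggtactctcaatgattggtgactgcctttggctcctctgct
Uhrf1 (chr17:56303087-56303336, plus strand): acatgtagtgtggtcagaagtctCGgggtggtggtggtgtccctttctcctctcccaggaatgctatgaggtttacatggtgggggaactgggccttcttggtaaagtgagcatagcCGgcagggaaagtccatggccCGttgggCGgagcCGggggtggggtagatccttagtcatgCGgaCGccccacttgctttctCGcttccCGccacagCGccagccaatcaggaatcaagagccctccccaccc
Tdg (chr10:82629588-82629813, plus strand): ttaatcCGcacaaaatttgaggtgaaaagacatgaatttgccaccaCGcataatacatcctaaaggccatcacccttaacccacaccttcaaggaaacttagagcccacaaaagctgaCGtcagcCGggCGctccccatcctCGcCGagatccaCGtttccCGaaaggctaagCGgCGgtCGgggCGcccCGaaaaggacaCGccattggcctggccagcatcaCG

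To determine whether the writers and erasers differed with the genotype of the father, the normalised signal of each probe (log2 signal minus the 75th percentile of its array, so that 0 is that percentile) was compared between the groups. *Dnmt1* and *Uhrf1* of the maintenance machinery and *Tet1* were lower in embryos of HOM fathers, and *Tet3* and *Tdg* were higher, each by 1 probe and by between 1.17-fold and 1.33-fold. No probe of *Dnmt3a*, *Dnmt3b*, *Dnmt3l* or *Tet2* passed an adjusted p below 0.05. At that threshold 5 of 18 member probes (27.8%) were called, 2 higher and 3 lower, whereas 21.0% of all 29718 tested probes were called, 12.3% higher and 8.69% lower in HOM father embryos. At the study's limits of 2-fold and an adjusted p below 0.01, no member probe was called in limma's test, although 7 had an unadjusted p below 0.05, compared with 1.27% and 34.8% of all tested probes. The share of members called was thus near that of the array as a whole. The median change over the 18 probes was 0.02 on the log2 scale, beside −0.02 over all tested probes. In whole embryos, fewer cells of a type and less RNA per cell cannot be told apart.

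**Figure D1:**
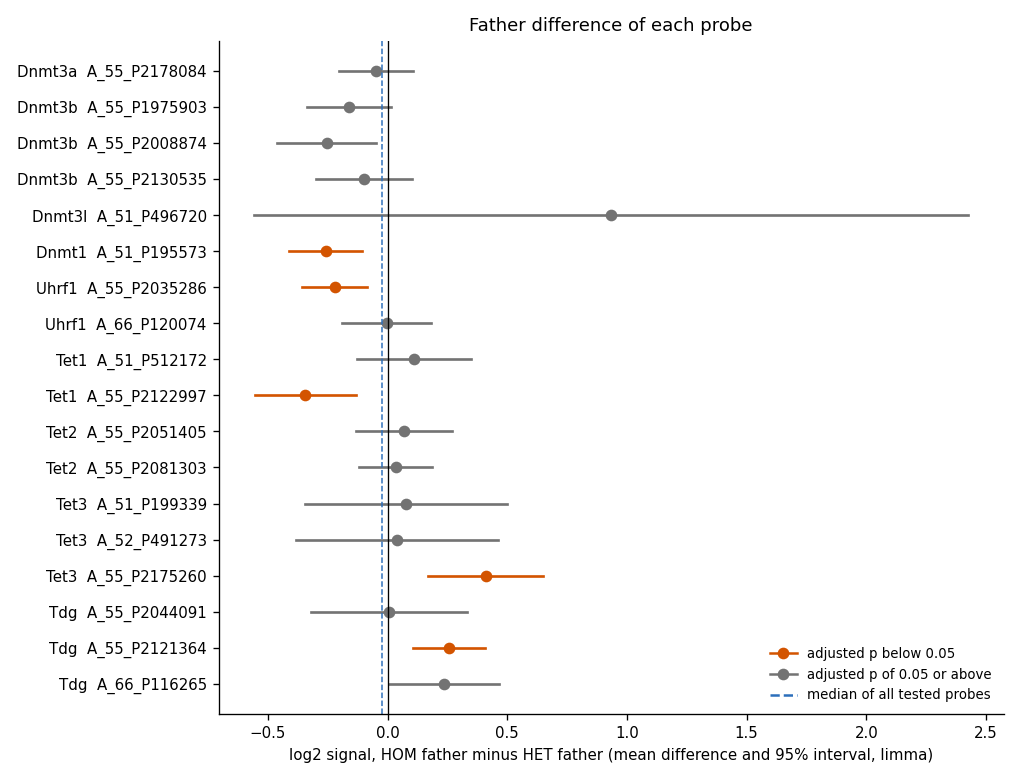
Difference in log2 signal between embryos of HOM and HET fathers (x axis) for each of the 18 probes (y axis), with points for the mean difference, bars for the 95% interval from limma and n = 4 embryos per group. The called probes lie between −0.34 (*Tet1*) and 0.41 (*Tet3*), while the *Dnmt3l* interval runs from −0.56 to 2.43.

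The maintenance pair moved in the same direction. *Dnmt1* (probe A_51_P195573) had normalised signals of 1.06, 1.23, 1.17 and 1.26 in HOM father replicates 1 to 4, compared with 1.38, 1.35, 1.54 and 1.48 in HET father replicates 1 to 4. Every embryo of a HOM father lay below every embryo of a HET father. *Dnmt1* fell by 16.5%, a log2 change of −0.26 (SE 0.07, 95% interval −0.41 to −0.11), with an adjusted p of 0.0294. *Uhrf1* (A_55_P2035286) measured 5.03, 5.11, 4.98 and 5.11 in HOM father embryos and 5.21, 5.23, 5.39 and 5.29 in HET father embryos, again without overlap. Its signal fell by 14.3% (log2 change −0.22, SE 0.06, adjusted p = 0.0343). A second *Uhrf1* probe (A_66_P120074), designed on another RefSeq transcript, ranged from −1.41 to −1.08 in HOM father embryos and from −1.33 to −1.15 in HET father embryos, with an adjusted p of 0.975. The 2 *Uhrf1* probes differed in their father effect by 0.22 (exact permutation p = 0.114, two-sided; 0.300 after adjustment over the 12 pairs of probes of 1 gene).

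The father difference of *Dnmt1* was called in 4 of the 8 fits that each left out 1 embryo and that of *Uhrf1* in 2 of 8, with changes from −0.29 to −0.22 for *Dnmt1* and from −0.25 to −0.19 for *Uhrf1*. The spread of *Uhrf1* within groups was small, at an SD of 0.07, which lay at the 19.8th percentile among tested probes.

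Of the de novo enzymes, *Dnmt3a* (A_55_P2178084) showed the smallest difference. It ranged from 0.27 to 0.42 in HOM father embryos and from 0.30 to 0.56 in HET father embryos, a log2 change of −0.05 (95% interval −0.20 to 0.11, adjusted p = 0.648). The array held 3 *Dnmt3b* probes, and their mean was lower in HOM father embryos on each. Probe A_55_P2008874 measured 2.62, 2.98, 2.70 and 2.72 in HOM father replicates 1 to 4, compared with 2.87, 3.05, 3.09 and 3.04 in HET father replicates 1 to 4. HOM father replicate 2 alone reached the HET range. The change was −0.26 (SE 0.09) with an adjusted p of 0.0825, and without that embryo it was −0.33 with an adjusted p of 0.0180. The other *Dnmt3b* probes, A_55_P1975903 and A_55_P2130535, changed by −0.16 (adjusted p = 0.175) and −0.10 (adjusted p = 0.460). HOM father replicate 2 was the highest embryo of its group on all 3 probes.

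**Figure D2:**
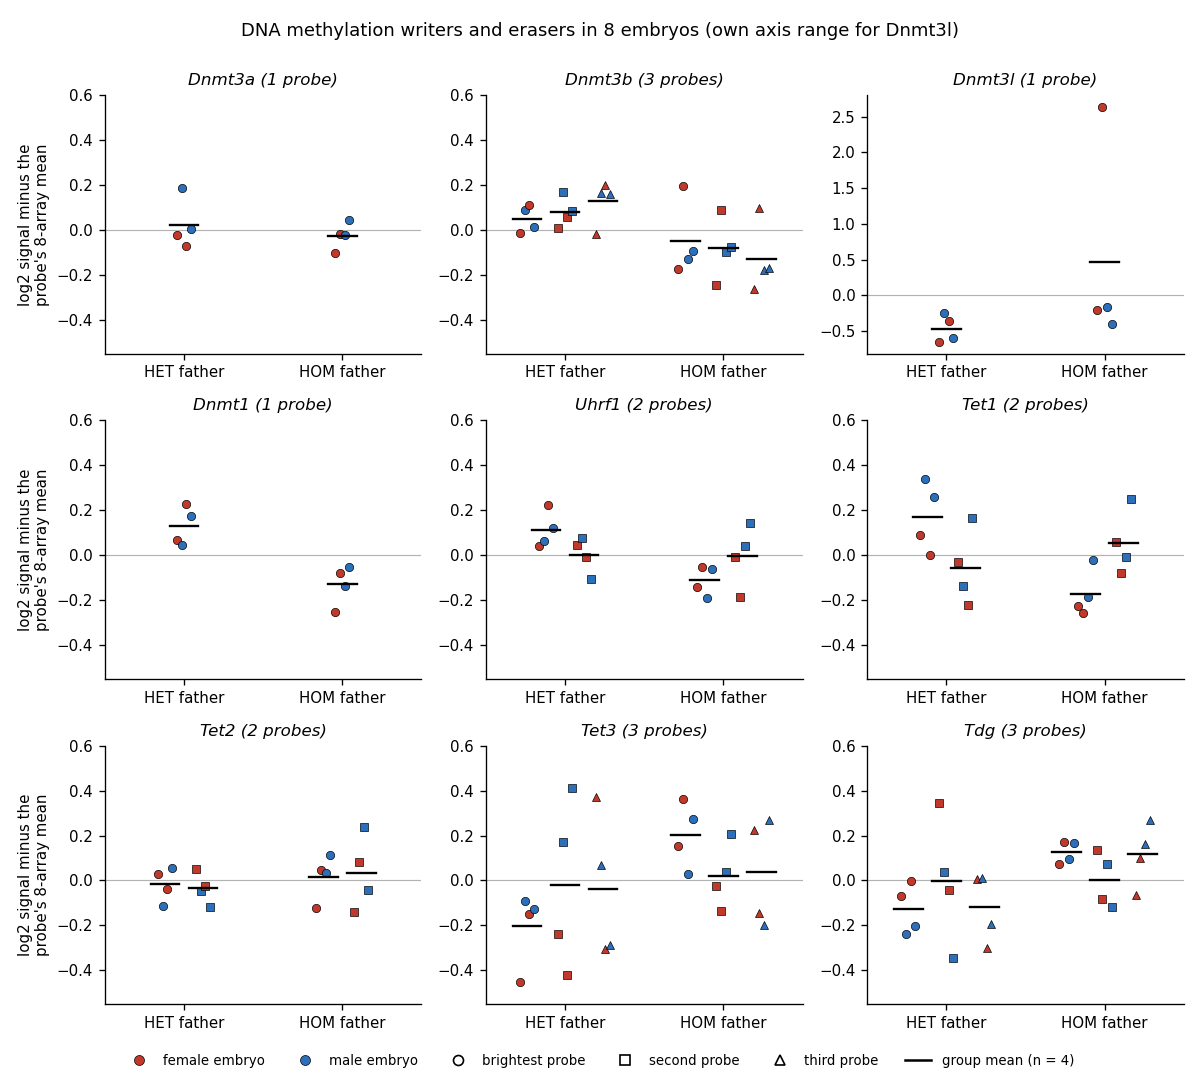
Signal of each embryo (log2, minus the mean of the 8 arrays for that probe) by father group, with 1 panel per gene, red for female and blue for male embryos, marker shapes for the probes of a gene and black bars for group means (n = 4). The groups do not overlap on the brightest probe of *Dnmt1*, *Uhrf1*, *Tet1*, *Tet3* and *Tdg*, and 1 HOM father embryo stands far above the rest in the *Dnmt3l* panel, which has its own axis range.

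*Dnmt3l* was set apart by a single embryo. Its probe (A_51_P496720) measured −3.53, −0.70, −3.50 and −3.74 in HOM father replicates 1 to 4 and −3.99, −3.59, −3.70 and −3.94 in HET father replicates 1 to 4. HOM father replicate 2, a female, lay 2.80 above the next embryo on the log2 scale, or 6.97-fold, while the other 7 embryos spanned −3.99 to −3.50. On the scanner's linear scale the signal of that embryo was 966, compared with 89.6 on the lowest array. The fitted father change of 0.93 (SE 0.64, adjusted p = 0.345, exact permutation p = 0.0857, two-sided) fell to 0.21 without this embryo, with an adjusted p of 0.246. The within-group SD of 1.03 was at the 98.5th percentile of tested probes.

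The gap of *Dnmt3l* in HOM father replicate 2 ranked 9th by size on that array among 29718 tested probes. That array held 22 probes at least 2 log2 units above all others, whereas the other 7 arrays held between 0 and 23 such probes each, so that other embryos held such probes too. Among the genes of the marker lists, *Ascl2*, a transcription factor of trophoblast progenitors, measured 1.67 in this embryo and between −1.98 and −1.29 in the other 7. *Tfap2c*, expressed in primordial germ cells and also in trophoblast, measured 1.01 there and at most 0.16 elsewhere. *Utf1*, *Esrrb* and *Pou5f1* of the early epiblast list measured 1.04, −0.73 and −1.34, compared with at most −0.03, −1.73 and −2.11 in the other embryos. These genes, like the next ones, were named after their values were seen. *Rhox9* (2.88 against at most 1.12) and *Stra8* (−3.17 against at most −4.57) were also highest in this embryo. Among tested probes with a RefSeq gene, their gaps ranked only 15th and 22nd on that array, and *Stra8* was well above background on 4 arrays. The 3 largest such gaps were those of *Gm9*, *Cyp2t4* and *Agrp*, which are on none of the marker lists.

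The marker lists did not move as a whole. Of the early epiblast list, 4 of 8 genes were highest in HOM father replicate 2, but *Nanog* was not (−2.72 against −2.76 to −1.81 in the other 7). Of the 7 trophoblast genes tested, *Ascl2* and *Prl3d1* were highest there. *Elf5* was highest in HET father replicate 3 (−2.08), with HOM father replicate 2 next (−2.30). *Prl8a2* (4.14) and *Plac1* (1.99) were also next to highest in HOM father replicate 2. *Krt7* (−0.86) was lowest in that embryo. *Gcm1* (3.25) was higher there than in the other HOM father embryos (2.91 to 2.98), and every HOM father embryo lay below all HET father embryos on that probe. The summed linear signal of the trophoblast list, in units of each array's 75th percentile, was 12.6, 39.0, 36.2 and 16.1 in HOM father replicates 1 to 4 and between 21.6 and 29.2 in HET father embryos. *Prl8a2* alone made up 45.3% of the sum in HOM father replicate 2 and 60.5% in HOM father replicate 3. The primordial germ cell list had its highest sum, 7.20, in HOM father replicate 2, beside 5.82 to 6.24 in the others. Of its 6 tested genes, *Tfap2c* (1.01 against at most 0.16) and *Nanos3* (0.77 against at most 0.72) were highest there. *Prdm1*, *Prdm14*, *Dnd1* and *Kit* were highest in other embryos. The part of such cells in the *Dnmt3l* signal was not tested.

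**Figure D3:**
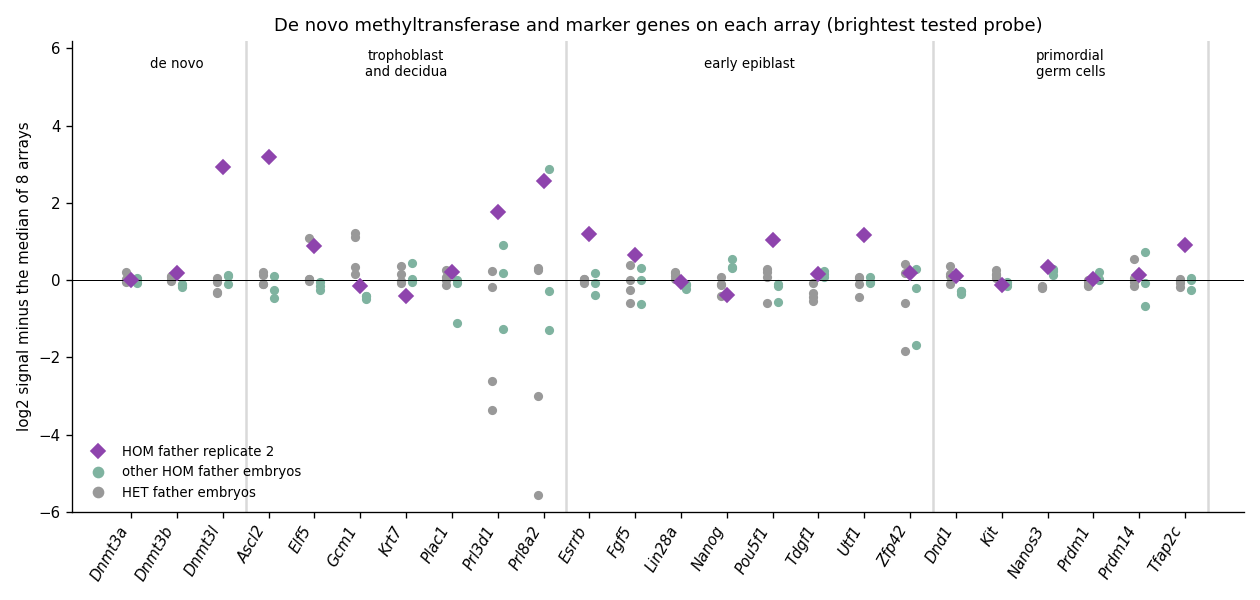
Log2 signal of each array minus the median of the 8 arrays (y axis) for the de novo methyltransferase genes and the genes of 3 marker lists (x axis), brightest tested probe of each, with purple diamonds for HOM father replicate 2, green points for the other HOM father embryos and grey points for HET father embryos. *Dnmt3l*, *Ascl2*, *Esrrb*, *Pou5f1*, *Utf1* and *Tfap2c* are highest in HOM father replicate 2, whereas *Nanog* and *Krt7* are not.

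The erasers moved in both directions. *Tet1* (A_55_P2122997) measured 1.16, 1.13, 1.20 and 1.37 in HOM father replicates 1 to 4 and 1.48, 1.73, 1.39 and 1.65 in HET father replicates 1 to 4, without overlap, although the highest HOM and the lowest HET value were close. Its signal fell by 21.2% (log2 change −0.34, SE 0.09, adjusted p = 0.0329). A second *Tet1* probe (A_51_P512172) measured −0.80, −0.94, −0.87 and −0.61 in HOM father embryos and −0.89, −0.998, −1.08 and −0.69 in HET father embryos, so that its mean was higher by 0.11 (adjusted p = 0.490). The father effects of the 2 probes differed by 0.45, with an exact permutation p of 0.0286 (two-sided), the smallest that 4 against 4 embryos allow, and of 0.171 after adjustment over 12 pairs. The direction for *Tet1* therefore rests on 1 of its 2 probes.

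*Tet3* was higher in embryos of HOM fathers on its brightest probe (A_55_P2175260). It measured −1.03, −0.83, −1.16 and −0.91 in HOM father replicates 1 to 4 and −1.64, −1.28, −1.34 and −1.31 in HET father replicates 1 to 4. The 2 groups did not overlap, and HET father replicate 1 lay below the rest. The increase was 1.33-fold (log2 change 0.41, SE 0.10, adjusted p = 0.0290), and without HET father replicate 1 it was 0.33 on the log2 scale. The other *Tet3* probes, A_52_P491273 and A_51_P199339, changed by 0.04 (95% interval −0.38 to 0.46) and 0.08 (−0.34 to 0.50), and had SDs within groups of 0.29 each, compared with 0.16 for the brightest probe. *Tet2* ranged from −0.31 to −0.08 in HOM father embryos and from −0.30 to −0.13 in HET father embryos on its brightest probe (A_55_P2081303). Its 2 probes changed by 0.03 (95% interval −0.12 to 0.19) and 0.07 (−0.13 to 0.27).

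*Tdg* (A_55_P2121364) measured 0.77, 0.87, 0.80 and 0.87 in HOM father replicates 1 to 4 and 0.63, 0.46, 0.70 and 0.50 in HET father replicates 1 to 4. All embryos of HOM fathers lay above all embryos of HET fathers, and the HOM values were the more tightly grouped (SD 0.05 against 0.11, n = 4 each). The increase was 1.19-fold (log2 change 0.25, SE 0.07, adjusted p = 0.0297). A second probe, A_66_P116265, was higher by 0.24 with an adjusted p of 0.135, and the third, A_55_P2044091, by 0.00 (95% interval −0.32 to 0.33).

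The 5 called probes were the brightest probes of their genes, and none of the 9 probes that were not the brightest of their gene was called. The groups did not overlap on 5 of 18 member probes (27.8%), compared with 27.1% of all tested probes. Of the 5, 2 were higher and 3 lower, where 14.1% of all tested probes lay without overlap higher and 13.0% lower. The calls were not firm to the choice of embryos or scale. Between 0 and 5 member probes were called when 1 embryo was left out. With HET father replicate 4 left out none was called in limma's test (5 at an unadjusted p below 0.05). Leaving out HOM father replicate 1 or 3 left 1 call, leaving out HOM father replicate 4 or HET father replicate 2 or 3 left 2, and leaving out HOM father replicate 2 gave 3, *Dnmt3b* among them. The brightest probes of *Tet1*, *Tet3* and *Tdg* were each called in 3 of these 8 fits. Under quantile normalisation 2 probes, of *Dnmt1* and *Tdg*, were called. Scaling each array to its median moved all tested probes to a median of −0.21, and 7 member probes were then called, all lower. *Tet3* (0.22) and *Tdg* (0.06) were still higher on that scale but were not called. The changes relative to the median of all tested probes on that scale were −0.24 for *Dnmt1*, −0.20 for *Uhrf1*, −0.32 for *Tet1*, 0.43 for *Tet3* and 0.28 for *Tdg*. These equal the relative changes on the main scale by construction, since median scaling shifts each array as a whole, and are no further check.

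Next, male and female embryos were compared with father as a covariate. No member probe was called at an adjusted p below 0.05 in limma's test (lowest 0.828), where 0.121% of all tested probes were, and 2 had an unadjusted p below 0.05, compared with 5.22% of all tested probes. *Tet3* probe A_52_P491273 measured −3.54 and −3.65 in HOM father females, −3.75 and −3.94 in HET father females, −3.48 and −3.31 in HOM father males and −3.34 and −3.11 in HET father males. Females were thus lower than males in both groups, by 0.41 on average (95% interval −0.68 to −0.14). The difference of the brightest *Tet1* probe (A_55_P2122997) was −0.20 (95% interval −0.34 to −0.05), with an adjusted p of 0.902. For *Dnmt3l* females exceeded males by 0.71, and by −0.01 without HOM father replicate 2. The father effect did not differ between the sexes on any member probe at an adjusted p below 0.05 (lowest 1.00 by limma's interaction term, with 0 at an unadjusted p below 0.05), compared with 0.0639% of all tested probes at the adjusted and 4.52% at the unadjusted limit.

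Co-variation of the brightest probes among the 8 embryos, after each father group's mean was subtracted, is given as a description, since the genes share arrays and scaling. *Dnmt1* and *Uhrf1* rose and fell together (Pearson's r = 0.79, Spearman's rho = 0.74), as did *Dnmt3a* and *Tet1* (r = 0.83, rho = 0.71), while *Tet1* and *Tdg* ran opposite (r = −0.68, rho = −0.81). The r of 0.94 between *Dnmt3b* and *Dnmt3l* was 0.52 over the 7 embryos other than HOM father replicate 2. The probes of other genes most like *Dnmt1* were those of *Slc38a1*, *Ptma* and *Gm6981* (r = 0.98 to 0.99), those most like *Dnmt3b* were of *Adsl*, *2010204K13Rik* and *Aen* (r = 0.989 to 0.996), and those most like *Tet1* were of *Ago2*, *Brwd3* and *Dbil5* (r = 0.96 to 0.98). They were picked as the highest among the 19032 tested probes with a RefSeq gene, and how high r runs by chance in such a search was not tested. On the *Dnmt3b* probe used, HOM father replicate 2 was the highest of the 8 embryos (5.22 against at most 5.14), and its part in these r values was not tested.

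To place the members among their partners, 6 lists of related genes were examined, of which 23 of 125 tested probes (18.4%) were called, 6 higher and 17 lower in HOM father embryos, compared with 21.0% of all tested probes. That split depended on the scale, with 7 higher and 6 lower under quantile normalisation and 0 higher and 60 lower under median scaling. Of 17 probes of maintenance partners and methylation protectors, none was called higher and 5 lower (29.4%, where 21.0% of all tested probes were called and 8.69% lower). The list's median change was −0.09, and −0.04 under quantile normalisation. These were *Zfp57* (−0.33), which guards imprinted methylation, *Usp7* (−0.24), a deubiquitinase that binds DNMT1 and UHRF1, *Lig1* (−0.23), a replicative ligase, *Trim28* (−0.21), the corepressor that binds ZFP57, and *Dmap1* (−0.16), a DNMT1-associated protein that was named after its values were seen. A second *Zfp57* probe (0.22) and a second *Usp7* probe (−0.01) were not called. *Trim28* measured 5.08 to 5.17 in HOM father embryos and 5.30 to 5.43 in HET father embryos.

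Of the list of methyl-CpG readers, which also takes in their MBD family relatives, 3 of 13 probes (23.1%) were called. All 3 were lower, and the share was close to the 21.0% of all tested probes that were called. They were *Mbd4* (−0.35), which is also a glycosylase acting on deaminated methyl-CpG, and both probes of *Mbd3* (−0.23 and −0.22), a subunit of the NuRD complex. The brighter *Mbd3* probe (A_66_P127024) measured 5.70, 5.69, 5.63 and 5.68 in HOM father replicates 1 to 4 and 5.94, 5.83, 5.95 and 5.89 in HET father replicates 1 to 4. The groups were separated by more than the range of either. The list's median of −0.03 was close to that of all tested probes and turned to 0.004 under quantile normalisation.

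Base excision repair and deamination genes moved both ways, with 2 of 21 probes higher and 2 lower (19.0% called, 21.0% over all tested probes). *Apobec3*, a cytidine deaminase, was higher by 0.40 (adjusted p = 0.0205) and *Ogt*, which glycosylates TET proteins among many others, by 0.18, whereas *Xrcc1* and *Parp1*, which act in strand-break repair downstream of glycosylases, were lower by 0.23 and 0.19. In the methyl donor cycle 3 of 26 probes (11.5%) were called, a smaller share than over all tested probes. *Mtr*, the methionine synthase, was higher by 0.30 (adjusted p = 0.00734) and *Mat2a*, which makes S-adenosylmethionine, by 0.25, while *Shmt2* was lower by 0.18. The other probe of *Mtr* (−0.04) and that of *Mat2a* (−0.16) were not called and had the opposite sign.

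Of 22 germline genes listed as silenced in somatic cells by promoter methylation, 11 passed the filter on low signals and were tested, with 1 probe each. These 11 are the genes detected in the embryos rather than the list as a whole. The share called was 9.09% of the 11, compared with 21.0% of all tested probes. Only *Taf7l*, an X-linked paralogue of a general transcription factor subunit, was called, at 0.26 higher (adjusted p = 0.0369). Its values were 1.38, 1.23, 1.25 and 1.43 in HOM father replicates 1 to 4 and 1.17, 1.03, 0.96 and 1.09 in HET father replicates 1 to 4. The median of the tested germline probes was 0.10 and changed sign under quantile normalisation and median scaling.

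Since *Dnmt1* and *Uhrf1* are expressed mainly in dividing cells, S phase genes were examined beside them. Of 37 probes 6 were called lower and 1 higher, or 18.9%, below the 21.0% of all tested probes. A negative change was seen in 31 of 37, with a median of −0.10, which was −0.02 under quantile normalisation, beside −0.03 for all tested probes on that scale. *Rfc4*, a subunit of the clamp loader, fell by 0.51 and 0.19 on the log2 scale on its 2 probes, *Rrm2* by 0.21 and *Chaf1b* by 0.20, and *Gins3* was higher by 0.25. The changes of the brightest *Dnmt1* and *Uhrf1* probes were −0.26 and −0.22, and −0.23 and −0.15 under quantile normalisation. All tested S phase probes ran from −1.34 (*Prim2*, not called) to 0.25 on the main scale. The part of proliferation in the *Dnmt1* and *Uhrf1* signals was not tested.

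**Figure D4:**
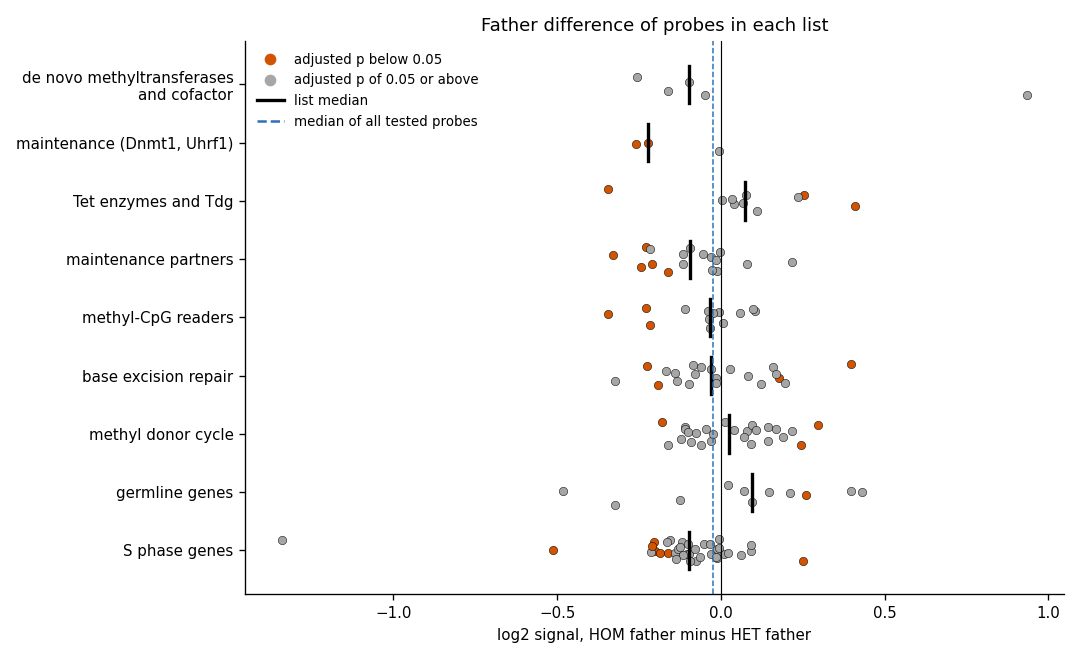
Difference in log2 signal between embryos of HOM and HET fathers (x axis) for the tested probes of the 3 member groups and 6 lists of related genes (y axis), with orange points for an adjusted p below 0.05, grey points for the rest, black bars for list medians and a dashed line for the median of all tested probes. The called probes of maintenance partners and methyl-CpG readers are all lower, and those of the other lists lie on both sides of 0, except the single germline call.

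Single markers of other cells also differed with the father, in both directions. Of 9 early epiblast probes *Lin28a* was lower by 0.25 (adjusted p = 0.0216) and *Tdgf1* higher by 0.51 (adjusted p = 0.0108). A second tested *Tdgf1* probe changed by −0.06 and was not called. A positive change was seen in 7 of the 9, with a median of 0.19, which was 0.04 under quantile normalisation and 0.002 under median scaling. The summed signal of that list, 59.8 to 69.2 in HOM father embryos and 70.8 to 79.0 in HET father embryos, was 93.1% to 96.8% *Lin28a*. Of 6 germ cell probes *Nanos3* was higher by 0.43 (adjusted p = 0.00178) and *Kit* lower by 0.25 (adjusted p = 0.0194). The brightest *Gcm1* probe, a marker of trophoblast, was lower by 1.07 (adjusted p = 0.0217), the 1 call among 10 trophoblast probes. The summed signal of the primitive erythroid list was 610 to 784 in HOM father embryos and 780 to 815 in HET father embryos. The part of these differences in the father effect on the methylation genes was not tested.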

How the data were processed

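RNA of 8 embryos was labelled with Cy3 and hybridised to Agilent SurePrint G3 Mouse GE arrays. The deposited intensity of each spot was made by the authors with Agilent Feature Extraction 11.0.1.1, which subtracts background, and had not been normalised between arrays. The intensity values in the authors' series-wide table differed from these by at most 0.497%. Deposited spot flags (other values, 0 or 1) served as filters.

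Groups and sex were taken from the labels. Outlier spots were dropped, log2 signal minus each array's 75th percentile was averaged per probe, and probes were tested when at least 4 of 8 arrays held them well above background and not under that array's 20th percentile, which kept 29718 of 55681 probes. Probes of a gene were kept apart, and the probe with the highest mean stood for its gene. Tests used limma 3.58.1 (lmFit, eBayes, two-sided) in R 4.3.3 with Benjamini-Hochberg adjustment over all tested probes, without covariates for father, with father as covariate for sex, and with an interaction term, beside exact permutation tests. A probe was called at an adjusted p below 0.05, or, by the study's limits, below 0.01 with a 2-fold change. Quantile normalisation, median scaling, normexp, the deposited table, filters, sex as covariate, blocks and left-out embryos were tried. The procedure was tested on simulated data. Gene names came from a RefSeq table (GRCm38.p6, names only), which matched 27235 probes, and promoter windows from RefSeq. The members and lists were chosen with earlier results of these data known. All 18 member probes are described, with at most 4 called genes of largest change per list except where stated, and with 3 most similar probes each for *Dnmt1*, *Dnmt3b* and *Tet1*. The result for 1 marker gene is not reported here.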

Additional observations from a re-analysis of the deposited data

Results flagged for a closer look

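In 36 combinations of member probe and father group, the gap between the extreme embryo and its neighbour was compared with the range of the 4 embryos. The ratio passed Dixon's 95% critical value for 4 samples in 2 of them, where chance gives about 1 in 20, or 1.8. *Dnmt3l* (A_51_P496720) in HOM father embryos had a ratio of 0.923, with HOM father replicate 2 at −0.70 and the others between −3.74 and −3.50. *Tet3* (A_55_P2175260) in HET father embryos had a ratio of 0.839, with HET father replicate 1 at −1.64 and the others between −1.34 and −1.28.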

How the results depend on the processing

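The count of 5 called member probes by father was 2 under quantile normalisation, 0 with no filter (6 at an unadjusted p below 0.05), 1 (*Tet3*) with replicate number as a block (replicate block) and 2 (*Dnmt1* and *Uhrf1*) with the identifier number as a random block. Leaving out 1 embryo gave 0 to 5 calls. The 23 called pathway probes (6 higher, 17 lower) became 13 under quantile normalisation (7 and 6), 60 under median scaling (0 and 60), 2 with no filter (1 and 1), 4 with the replicate block (3 and 1) and 7 to 19 with 1 embryo left out, the lowest without HOM father replicate 1. Deviations of same-numbered embryos correlated at −0.13 to 0.19 across probes. HOM father replicates 1 and 4 were most like the HET father embryo of their own number, and replicates 2 and 3 were not. The study used littermate brothers as sires, but the labels do not name the sires. Whether the numbers pair the embryos cannot be told from these values. Calls at the study's limits, by sex and by interaction numbered 0 under every alternative run, and the interaction with sex as a covariate is the same model.

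None of the 5 called changes reversed under an alternative run. Changes that were not called did: under quantile normalisation *Tet2* A_55_P2051405 was −0.016, and *Tet3* A_51_P199339 and A_52_P491273 were −0.11 each. Under median scaling *Tet1* A_51_P512172 was −0.080, *Tet2* A_55_P2051405 −0.12 and A_55_P2081303 −0.16, *Tet3* A_51_P199339 −0.11 and A_52_P491273 −0.15, and *Tdg* A_55_P2044091 −0.19. Under normexp on median signals, chosen after seeing the data because the planned mean signals were not used here, *Uhrf1* A_66_P120074 was 0.014, *Tet2* A_55_P2081303 −0.064, *Tet3* A_51_P199339 −0.12 and *Tdg* A_55_P2044091 −0.11. With 1 embryo left out, ranges that crossed 0 were −0.081 to 0.0046 (*Dnmt3a*), −0.053 to 0.057 (*Uhrf1* A_66_P120074), −0.012 to 0.21 (*Tet3* A_51_P199339), −0.093 to 0.18 (*Tet3* A_52_P491273), −0.11 to 0.12 (*Tdg* A_55_P2044091) and, for the sex difference of *Dnmt3l*, −0.014 to 1.12. The cause was not tested.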
